A study of Mus musculus with 24 samples.

Results

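The genes described here encode 6 inhibitory checkpoint receptors of T cells: Havcr2 (TIM-3), Lag3 (LAG-3), Pdcd1 (PD-1), Ctla4 (CTLA-4), Tigit (TIGIT) and Cd5 (CD5). They were chosen by name, and all 6 were found among the 9420 genes of the table by mapping its Ensembl identifiers to gene symbols. The study followed mouse Th1 effector CD4+ T cells of strain DO11.10, a line with a transgenic T cell receptor, after restimulation through the T cell receptor and CD28. Cells received soluble anti-CD3 at 1 µg/ml and anti-CD28 at 2.5 µg/ml over plate-bound anti-hamster antibody. No genotype or drug separated the groups, which differed by time and by kind of library.

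Newly made RNA was captured after labelling with 4-thiouridine (4sU), a uridine analogue that cells build into RNA as they transcribe it. With the 1 h label at 200 µM, new RNA was measured in duplicate (n = 2) at 0, 1 and 4 h and in a single replicate 1 library at 2 h and at 3 h. For total RNA, duplicates covered 0 and 4 h, while 1 h (replicate 2) and 2 h (replicate 1) had a single library. Ribosome footprints, the mRNA stretches that ribosomes protect from nuclease, were in duplicate at 0, 1 and 4 h and in replicate 1 alone at 0.5 and 2 h. A short label of 0.5 h at 500 µM was sampled once at 0 h and once at 0.5 h. The labels do not say whether replicates were separate cultures or animals, so the spread behind each p-value may be technical. In bulk RNA, fewer cells of a type and less RNA per cell cannot be told apart.

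Checkpoint receptors sit in the T cell membrane and restrain signalling from the T cell receptor and its costimulators. Several of them are placed on the surface only after activation, so a T cell that has been stimulated carries more of the brakes that can later stop it. TIM-3 is known as a marker of terminally differentiated Th1 cells, CTLA-4 competes with CD28 for its ligands, PD-1 recruits a tyrosine phosphatase, LAG-3 binds MHC class II, TIGIT binds the nectin-like protein CD155, and CD5 tunes the strength of antigen receptor signals.

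Values are FPKM, a count of fragments divided by gene length and by library depth, and changes are differences of log2(FPKM + 1), which understate the change of low genes. A change was called where limma, fitted over all genes of 1 kind of library, gave a Benjamini-Hochberg adjusted p below 0.05. Libraries that share a replicate number deviated together in all 28 pairs of replicated groups, so a second fit with the replicate number as a block is given where it altered a call. Depth could be inferred for 12 of 24 libraries and ran from 4.87 to 26.2 M reads. Replicates 1 and 2 differed in the levels of cell type markers. The summed FPKM of 5 measured CD8 T cell markers of 6 listed was 272 to 361 in total RNA of replicate 1 and 20.1 to 43.0 in replicate 2. Of the 5, Gzma had the highest mean, with 110 ± 149 FPKM (SD, n = 2) in total RNA at 0 h. Eomes went the other way: from 0 to 4 h its new RNA rose by 3.88 in replicate 2 and by 2.63 in replicate 1. T cell markers (5 of 8 listed: Cd3d, Cd3e, Cd3g, Cd247 and Lat) were measured in every library. Their sum had a replicate 1 to replicate 2 ratio of 1.13 to 1.45. In new RNA at 4 h, 2 of these 5 were called lower (Cd3d and Cd3g), where 14.4% of all genes were called higher and 18.9% lower. With the block these shares were 23.3% and 35.4%. Of the CD4 T cell markers Cd4 was called lower (-0.73, limma adjusted p = 0.0227). Of 8 Th1 markers Ifng was called higher, and Cxcr3 (-3.21), Il18r1 (-1.41) and Il18rap (-1.80) were called lower, and the block added 2 higher (Ccl5 and Hlx). The replicate ratio of the Th1 sum ran from 1.15 to 4.8 and that of the 8 regulatory T cell markers from 0.841 to 7.3.

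Among the 8 regulatory T cell markers, 4 were called higher in new RNA at 4 h (Il2ra, Tnfrsf18, Izumo1r and Lrrc32), and with the replicate block 6 higher, Foxp3 and Il10 included, and 1 lower. The shares of all genes in that comparison were 14.4% higher and 18.9% lower, or 23.3% and 35.4% with the block. Foxp3, which defines these cells, changed from 1.24 to 2.12 FPKM in new RNA (limma adjusted p 0.12, and 0.0419 with the block) and from 6.39 to 10.8 in footprints (limma adjusted p 0.0518, and 0.0157 with the block). Of the 5 CD8 T cell markers 1 was called higher in new RNA at 4 h (Eomes), and with the block 2 were higher and 1 lower. Cd8a passed only with the block (limma adjusted p 0.449, and 0.00647 with it). Natural killer (2 of 8 listed), B cell (4 of 6), dendritic (3 of 8) and macrophage (2 of 9) markers were also measured. Of these Klrd1 was called lower (-2.17, limma adjusted p = 0.0037), and Fcer1g, Cd79b, H2-Aa and Cd68 were listed at 0 in at least 1 library. Follicular helper markers (4 of 5 measured) were 1.56 to 14.3 times higher in replicate 1, and Bcl6 was called lower at 4 h. The block added 2 dendritic (H2-Aa and Cd74) and 1 follicular helper marker (Sh2d1a) called lower, and 1 called higher (Il21). The part of any of these cell types in the receptors' values was not tested.

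At 0 h the receptors spanned a wide range of levels per length. Ctla4 led new RNA with 614 ± 74.4 FPKM (SD, n = 2), above 99.7% of all genes, and Cd5 followed with 143 FPKM. Pdcd1 had 27.5 ± 8.32 FPKM, and Lag3, Tigit and Havcr2 had 6.52, 5.81 and 2.53 FPKM. The libraries of Lag3 and Tigit overlapped, as did those of Tigit and Havcr2, so the order of these 3 was not resolved. In total RNA the order was Ctla4 (189 FPKM), Cd5 (102), Lag3 (28.4), Pdcd1 (8.10), Tigit (3.90) and Havcr2 (2.79), and only the last neighbours overlapped. In footprints Ctla4 again led with 476 FPKM, with Cd5 at 260 and Lag3 at 229 overlapping behind it, then Tigit at 53.0, Pdcd1 at 19.3 and Havcr2 at 9.71. Lag3 thus ranked above 28.4% of genes in new RNA, above 83.9% in total RNA and above 93.0% in footprints.

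By 4 h the order had changed. Havcr2 stood above 87.1% of genes in new RNA, against 9.1% at 0 h, and its libraries overlapped with those of Pdcd1. In footprints at 4 h Ctla4 (307 FPKM), Lag3 (302) and Cd5 (293) overlapped with their neighbours, as did Tigit (115.5) and Havcr2 (112).

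**Figure D1:**
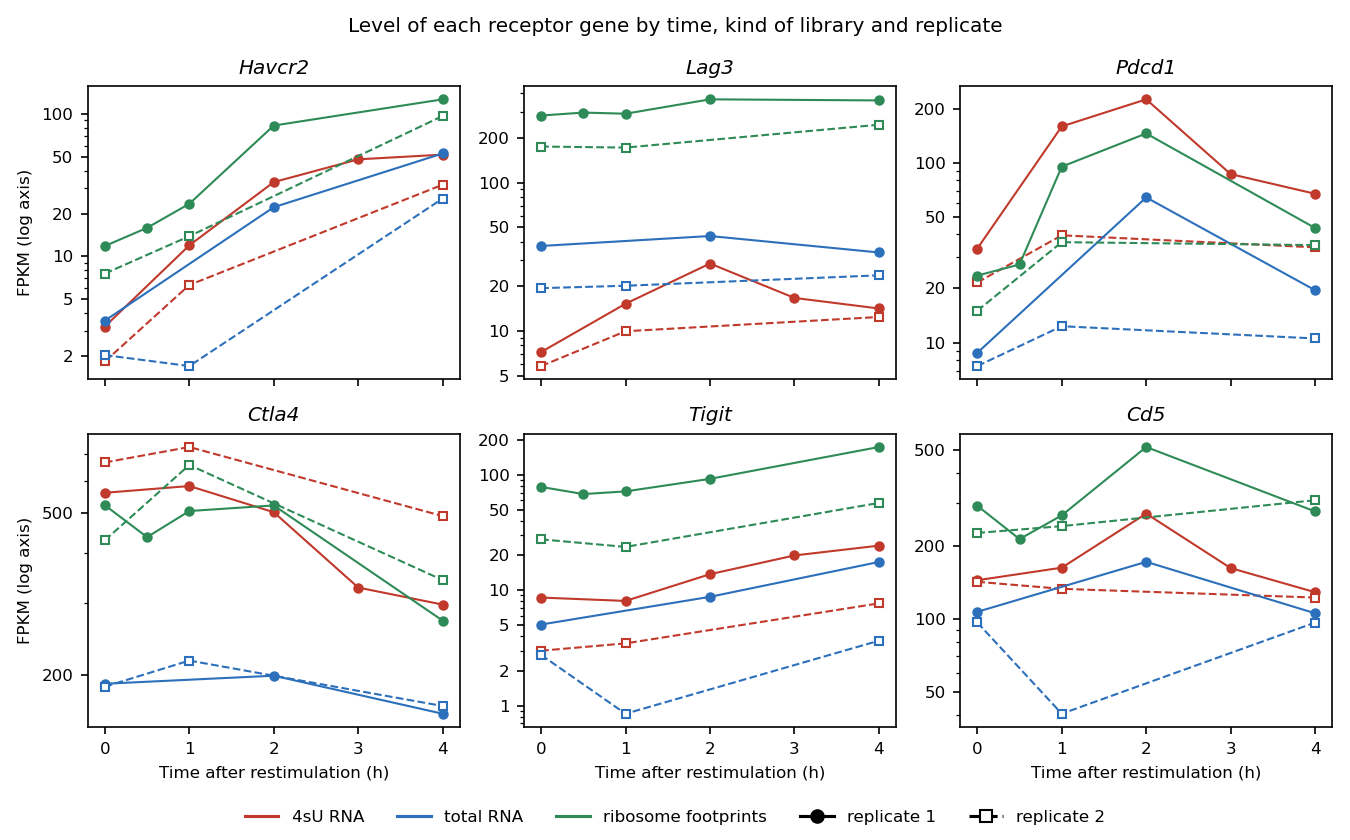
FPKM on a log axis against hours after restimulation for each receptor gene, with 1 point per library, colours for the kind of library, solid lines for replicate 1 and dashed lines for replicate 2. Havcr2 climbs in all 3 kinds to its 4 h values, Pdcd1 of replicate 1 is highest at 2 h, and Ctla4 is lowest at 4 h.

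Promoters are shown for 3 receptors with unlike time courses: Havcr2, with the largest rise at 4 h, Pdcd1, which was highest at 2 h in replicate 1, and Ctla4, which was high at 0 h. Each run is the 250 bases before the start in the RefSeq table (GRCm38.p6), written 5′ to 3′ on the gene's strand. Capitals mark matches on either strand to the core bound by NFAT (GGAAA), to an AP-1 site (TGANTCA) or to the Nr4a element NBRE (AAAGGTCA). NFAT and AP-1 factors are switched on by antigen receptor signalling, and Nr4a receptors are early genes of the same response. Havcr2 is chr11:46454681-46454930 (+), Pdcd1 is chr1:94052554-94052803 (-) and Ctla4 is chr1:60908775-60909024 (+).
Havcr2: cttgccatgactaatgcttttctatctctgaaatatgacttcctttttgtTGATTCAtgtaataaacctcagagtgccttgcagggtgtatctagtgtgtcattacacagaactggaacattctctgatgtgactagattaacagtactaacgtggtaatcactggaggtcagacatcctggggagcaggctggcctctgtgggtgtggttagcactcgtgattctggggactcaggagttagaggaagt
Pdcd1: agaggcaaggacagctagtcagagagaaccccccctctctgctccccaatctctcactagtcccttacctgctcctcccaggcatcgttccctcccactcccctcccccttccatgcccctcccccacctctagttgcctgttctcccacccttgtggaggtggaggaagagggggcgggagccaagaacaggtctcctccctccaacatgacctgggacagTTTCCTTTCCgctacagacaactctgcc
Ctla4: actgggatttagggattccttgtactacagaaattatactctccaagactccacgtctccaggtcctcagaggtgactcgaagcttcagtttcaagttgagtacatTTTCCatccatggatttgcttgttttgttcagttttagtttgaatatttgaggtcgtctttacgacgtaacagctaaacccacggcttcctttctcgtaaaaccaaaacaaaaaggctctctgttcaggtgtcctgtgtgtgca
The Havcr2 window held 1 AP-1 match, 200 bases before the start. Pdcd1 held a pair of NFAT core matches 28 and 23 bases before its start, on the opposite strand, and Ctla4 held 1 at 144 bases. The same search found NFAT core matches 110 and 13 bases before the Tigit start (chr16:43664185-43664434) and none of the motifs in Cd5 (chr19:10738975-10739224). Among 32851 promoters of the same length, 55.6% held the NFAT core, 6.75% the AP-1 letters and 1.34% the NBRE letters, so the NFAT core is common. A match is a description of letters and not a bound site.

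Havcr2 (ENSMUSG00000020399, chr11:46454935-46481255, + strand of GRCm38 in GENCODE M21) encodes TIM-3, a receptor for galectin-9 and other ligands whose tail lacks the usual inhibitory motif. In new RNA replicate 1 it had 3.22, 11.96, 33.23, 48.01 and 51.8 FPKM at 0, 1, 2, 3 and 4 h. Replicate 2 had 1.83, 6.3 and 31.86 FPKM at 0, 1 and 4 h. Both replicates were lowest at 0 h and highest at 4 h, with no overlap between the 0, 1 and 4 h groups. Total RNA of replicate 1 had 3.54, 22.15 and 52.79 FPKM at 0, 2 and 4 h, and that of replicate 2 had 2.03, 1.7 and 25.47 at 0, 1 and 4 h. Total RNA at 1 h was not above its own 0 h library, while new RNA of the same replicate and hour was 3.44 times its 0 h level. That 1 h total RNA library is the only one of its time. In it Cd5 was at 0.42 and Tigit, with 0.85 FPKM, at 0.309 times the 0 h level of the same replicate. Lag3 was at 1.04, Ctla4 at 1.16 and Pdcd1 at 1.67 times. Footprints of replicate 1 had 11.83, 15.87, 23.41, 82.87 and 126.59 FPKM at 0, 0.5, 1, 2 and 4 h, and those of replicate 2 had 7.58, 13.86 and 96.71 at 0, 1 and 4 h. They were lowest at 0 h and highest at 4 h in both.

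By 4 h Havcr2 had reached 16.1 and 17.4 times its own 0 h FPKM in new RNA of replicates 1 and 2, 14.9 and 12.5 times in total RNA, and 10.7 and 12.8 times in footprints. The log2 change from 0 to 4 h was 3.59 ± 0.38 (SE) in new RNA, with a limma adjusted p of 0.00296. It was 3.35 ± 0.38 in total RNA (limma adjusted p = 0.00638) and 3.41 ± 0.33 in footprints (limma adjusted p = 0.0047). All 3 rises kept their call when any 1 of the 4 libraries compared was left out. From 1 to 4 h Havcr2 rose by a further 2.10 ± 0.38 in new RNA (limma adjusted p = 0.0136) and 2.55 ± 0.33 in footprints (limma adjusted p = 0.0134). The new RNA call was lost without the 4 h library of replicate 1 (limma adjusted p = 0.0699) or without the 1 h library of replicate 2 (limma adjusted p = 0.0593). In footprints the call was lost without any 1 of the 4 libraries compared, with limma adjusted p from 0.0507 to 0.0936. At 1 h against 0 h the new RNA change of 1.49 ± 0.38 was not called (limma adjusted p = 0.222), and with the replicate block it was (limma adjusted p = 0.00168). The footprint change at 1 h, 0.86 ± 0.33, likewise passed only with the block (limma adjusted p 0.441 without it and 0.0459 with it).

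Replicate 1 was above replicate 2 for Havcr2 in all 8 replicated groups, by 1.31 to 2.07 times. The marker sums of CD8 T cells (2.87 to 15.1 times) and follicular helper cells (1.56 to 14.3) were also higher in replicate 1 in each group. So were those of Th1 (1.15 to 4.8) and T cell markers (1.13 to 1.45). The other marker sums fell below 1 in at least 1 group. The part of any of these cell types in the Havcr2 level was not tested.

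Tigit (ENSMUSG00000071552, chr16:43648867-43664146, - strand) encodes a receptor that competes with the activating receptor CD226 for CD155. New RNA of replicate 1 had 8.63, 8.07, 13.76, 20.0 and 24.32 FPKM at 0, 1, 2, 3 and 4 h, and that of replicate 2 had 2.99, 3.46 and 7.69 at 0, 1 and 4 h. Each replicate was highest at 4 h, but the 4 h value of replicate 2 lay below the 0 h value of replicate 1, so the groups overlapped. Total RNA had 5.04, 8.76 and 17.56 FPKM at 0, 2 and 4 h in replicate 1 and 2.75, 0.85 and 3.65 at 0, 1 and 4 h in replicate 2. Only about 12.3 reads stood behind the 0 h value of replicate 2, as inferred from the FPKM steps. Footprints had 78.48, 68.06, 71.78, 92.2 and 173.97 FPKM at 0, 0.5, 1, 2 and 4 h in replicate 1 and 27.59, 23.71 and 57.02 at 0, 1 and 4 h in replicate 2.

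Within each replicate, Tigit footprints at 4 h were 2.22 and 2.07 times those at 0 h, and new RNA was 2.82 and 2.57 times. Without the block neither change was called: 1.26 ± 0.66 in new RNA (limma adjusted p = 0.181) and 1.08 ± 0.79 in footprints (limma adjusted p = 0.351). With the block both were called, with limma adjusted p of 0.000472 and 0.00147. The 1 to 4 h changes behaved alike: 1.22 ± 0.66 in new RNA (limma adjusted p 0.207, and 0.000707 with the block) and 1.25 ± 0.79 in footprints (limma adjusted p 0.329, and 0.00159 with the block). In total RNA the change was 1.62 in replicate 1 and 0.31 in replicate 2, a mean of 0.96 ± 0.61 (limma adjusted p 0.317, and 0.000352 with the block). Without the 4 h total RNA library of replicate 2 it passed (limma adjusted p = 0.0478), and without that of replicate 1 it was -0.033. Tigit had the largest gap between replicates, by the median ratio of 2.96: replicate 1 was 1.83 to 4.81 times replicate 2 in the 8 replicated groups. In these groups the marker sums of CD8 T cells (2.87 to 15.1 times) and follicular helper cells (1.56 to 14.3) were also higher in replicate 1. So were those of Th1 (1.15 to 4.8) and T cell markers (1.13 to 1.45). The part of any of these cell types in the Tigit level was not tested.

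Lag3 (ENSMUSG00000030124, chr6:124904361-124911705, - strand) encodes a CD4-like receptor for MHC class II. New RNA of replicate 1 had 7.22, 15.28, 28.5, 16.72 and 14.19 FPKM at 0, 1, 2, 3 and 4 h, and that of replicate 2 had 5.81, 9.97 and 12.44 at 0, 1 and 4 h. All libraries after 0 h were above both 0 h libraries, and the single 2 h library was the highest. Total RNA had 37.43, 43.68 and 33.84 FPKM at 0, 2 and 4 h in replicate 1 and 19.46, 20.19 and 23.74 at 0, 1 and 4 h in replicate 2. Footprints had 283.1, 296.45, 291.22, 364.03 and 357.93 FPKM at 0, 0.5, 1, 2 and 4 h in replicate 1 and 175.07, 172.23 and 245.5 at 0, 1 and 4 h in replicate 2. In total RNA and footprints the replicates differed more than the times did.

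Lag3 new RNA rose by 0.93 ± 0.24 from 0 to 4 h (limma adjusted p = 0.0289). That call was lost without any 1 of the 4 libraries compared, with limma adjusted p from 0.0566 to 0.154. At 1 h the change of 0.84 ± 0.24 was called only with the block (limma adjusted p 0.255 without it and 0.0188 with it). Total RNA changed by 0.07 (limma adjusted p = 0.925), with -0.14 in replicate 1 and 0.27 in replicate 2. The footprint change of 0.41 ± 0.38 was not called (limma adjusted p = 0.457). The difference between the new RNA and total RNA changes of Lag3, 0.87 ± 0.46, did not pass (limma adjusted p = 0.906, unadjusted 0.0948).

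Pdcd1 (ENSMUSG00000026285, chr1:94038305-94052553, - strand) encodes PD-1, a CD28-family receptor that recruits the phosphatase SHP-2. New RNA of replicate 1 had 33.37, 159.29, 225.26, 86.5 and 67.23 FPKM at 0, 1, 2, 3 and 4 h, and that of replicate 2 had 21.61, 39.51 and 33.87 at 0, 1 and 4 h. Each replicate was higher at 1 h than at 0 or 4 h, and replicate 1 was highest in its only 2 h library. Total RNA of replicate 1 had 8.78, 64.17 and 19.56 FPKM at 0, 2 and 4 h, and that of replicate 2 had 7.41, 12.34 and 10.55 at 0, 1 and 4 h. Footprints had 23.6, 27.2, 95.15, 145.53 and 43.38 FPKM at 0, 0.5, 1, 2 and 4 h in replicate 1 and 15.04, 36.2 and 34.86 at 0, 1 and 4 h in replicate 2. In replicate 1 all 3 kinds had their highest value at 2 h, at 6.75 times the 0 h level in new RNA, 7.31 times in total RNA and 6.17 times in footprints. Replicate 2 has no 2 h library, so this maximum rests on 1 replicate.

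No Pdcd1 change was called without the block. The 1 h change was 1.53 ± 0.67 in new RNA, with 2.22 in replicate 1 and 0.84 in replicate 2 (limma adjusted p 0.399, and 0.0215 with the block). In footprints it was 1.59 ± 0.47 (limma adjusted p 0.347, and 0.0346 with the block), and the 0 and 1 h libraries did not overlap in either kind. From 0 to 4 h the changes were 0.81 ± 0.67 in new RNA, 0.76 ± 0.31 in total RNA and 1.01 ± 0.47 in footprints. Their limma adjusted p was 0.382, 0.147 and 0.168, and with the block 0.0451, 0.00332 and 0.0166. From 1 to 4 h Pdcd1 new RNA changed by -1.23 in replicate 1 and by -0.22 in replicate 2, a mean of -0.72 ± 0.67 that neither fit called (limma adjusted p 0.446, and 0.069 with the block). Replicate 1 was 1.18 to 4.03 times replicate 2 for Pdcd1. That ratio was 2.87 to 15.1 for the CD8 T cell marker sum, 1.56 to 14.3 for follicular helper and 1.15 to 4.8 for Th1 markers. The other marker sums, except that of T cell markers (1.13 to 1.45), fell below 1 in at least 1 group. The part of any of these cell types in the size of the response was not tested.

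Ctla4 (ENSMUSG00000026011, chr1:60887000-60915832, + strand) encodes the CD28-family receptor that binds CD80 and CD86. New RNA had 561.45, 583.34, 502.98, 328.33 and 298.13 FPKM at 0, 1, 2, 3 and 4 h in replicate 1 and 666.68, 727.49 and 492.09 at 0, 1 and 4 h in replicate 2. Both 4 h libraries were below both 0 h libraries. Total RNA had 190.46, 199.34 and 160.71 FPKM at 0, 2 and 4 h in replicate 1 and 187.34, 217.16 and 167.91 at 0, 1 and 4 h in replicate 2. Footprints had 523.28, 436.8, 506.39, 522.7 and 272.3 FPKM at 0, 0.5, 1, 2 and 4 h in replicate 1 and 429.11, 657.21 and 342.5 at 0, 1 and 4 h in replicate 2. In every kind and replicate the 4 h value was below the 0 h value, and the groups did not overlap. Ctla4 was the receptor whose replicates were nearest in total RNA at 0 h.

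The Ctla4 changes from 0 to 4 h were -0.67 ± 0.41 in new RNA, -0.20 ± 0.24 in total RNA and -0.63 ± 0.25 in footprints, and none was called. Their limma adjusted p was 0.239, 0.606 and 0.118, and the new RNA and footprint values with the block were 0.0548 and 0.0506. From 1 to 4 h the changes were -0.76 ± 0.41 in new RNA and -0.92 ± 0.25 in footprints. These passed only with the block (limma adjusted p 0.203 and 0.0641 without it, 0.0378 and 0.0187 with it). Footprints at 1 h stood at 0.968 times the 0 h level in replicate 1 and at 1.53 times in replicate 2, and this difference was not called (limma adjusted p = 0.741).

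Cd5 (ENSMUSG00000024669, chr19:10717116-10739002, - strand) encodes a scavenger-receptor family protein that dampens antigen receptor signals. New RNA had 144.38, 162.72, 272.03, 162.08 and 128.85 FPKM at 0, 1, 2, 3 and 4 h in replicate 1 and 142.22, 133.07 and 122.48 at 0, 1 and 4 h in replicate 2. Total RNA had 106.94, 172.02 and 105.47 FPKM at 0, 2 and 4 h in replicate 1 and 96.61, 40.57 and 96.55 at 0, 1 and 4 h in replicate 2. Footprints had 293.13, 213.57, 267.5, 512.46 and 277.76 FPKM at 0, 0.5, 1, 2 and 4 h in replicate 1 and 226.37, 241.55 and 309.03 at 0, 1 and 4 h in replicate 2. The 2 h libraries, all of replicate 1, were the highest of their kind, at 1.88, 1.61 and 1.75 times the 0 h level in new RNA, total RNA and footprints. By 4 h Cd5 was back near its 0 h level: the changes were -0.19 ± 0.22 in new RNA (limma adjusted p = 0.541), -0.01 in total RNA (limma adjusted p = 0.984; 0.11 with median-of-ratios scaling) and 0.18 in footprints (limma adjusted p = 0.564). The low total RNA value at 1 h comes from the only total RNA library of that time, and no test between times was made on it.

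Over the 6 receptors, 2 were called at 4 h against 0 h in new RNA (Havcr2 and Lag3, both higher), where 33.3% of the genes tested passed, 14.4% in the higher and 18.9% in the lower direction (1334 and 1755 genes, or 1646 and 1372 with median-of-ratios scaling). With the replicate block 4 were called, all higher, where 58.7% of all genes were called in either direction and 23.3% higher. The groups of 5 did not overlap, against 70.9% of genes. The median change of the 6 receptors was 0.87, against -0.16 over all genes, a median that median-of-ratios scaling moves up by 0.15. In total RNA 1 receptor was called (Havcr2), against 13.5% of all genes and 6.47% in the higher direction (587 higher and 637 lower, or 786 and 552 with median-of-ratios scaling). With the block there were 3, all higher, against 39.9% in either direction and 16.6% higher, and 3 did not overlap, against 62.1%. That blocked fit had 1 residual degree of freedom, so its spread came almost wholly from other genes. In footprints 1 receptor was called (Havcr2), against 25% of all genes and 12.1% in the higher direction. With the block there were 3, all higher, against 48% in either direction and 21.3% higher, and 3 did not overlap, against 65.8%. The 6 receptors are few and were chosen with earlier results of these data known. These counts are therefore no result about the receptors as a group.

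At 1 h no receptor was called in new RNA, where 0.183% of genes were. The block called 3 higher (Havcr2, Lag3 and Pdcd1), against 10.6% of genes in either direction and 5.21% higher. The groups of 3 did not overlap, against 48.7%. In footprints at 1 h none was called, against 0.14%. With the block 2 were called higher (Havcr2 and Pdcd1), against 1.97% of genes in either direction and 1.42% higher. The groups of 2 did not overlap, against 42.4%. From 1 to 4 h Havcr2 alone was called in new RNA, against 26.7% of genes, and alone in footprints, against 14.1%. With the block Havcr2 and Tigit were called higher and Ctla4 lower in both kinds, against 54.1% and 36.7% of genes. The comparisons with 0 h share those libraries, as do those with 4 h.

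**Figure D2:**
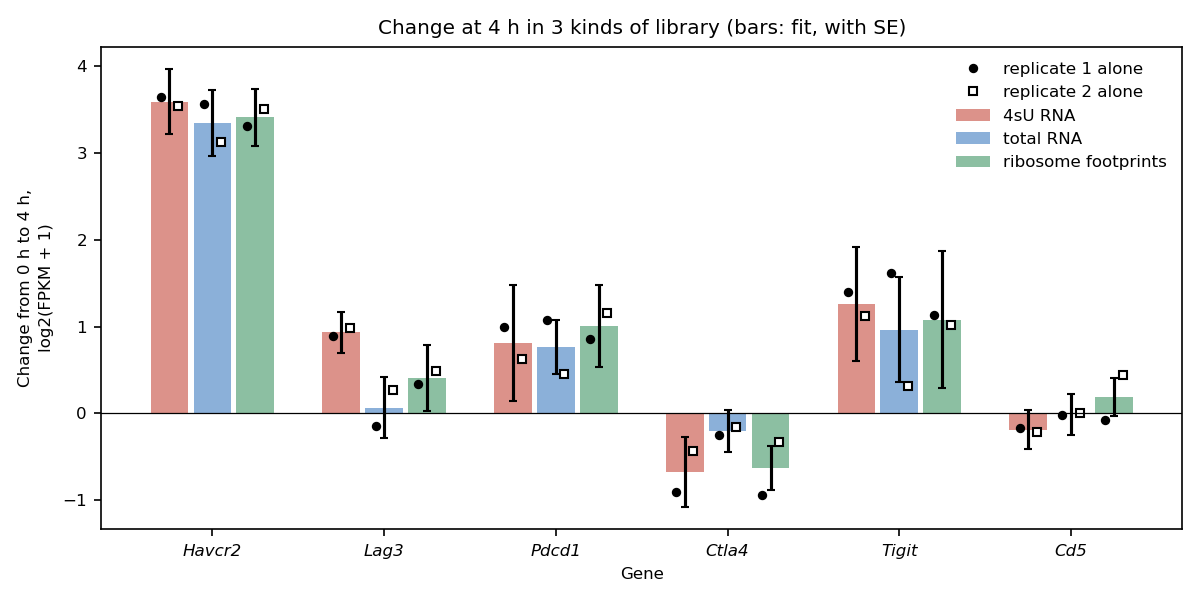
Change in log2(FPKM + 1) from 0 to 4 h for each receptor in new RNA, total RNA and footprints; bars are the fitted change with its SE and points the change within replicate 1 and within replicate 2. Havcr2 stands above 3 in every kind and replicate, Ctla4 lies below 0 throughout, and Tigit total RNA differs between the replicates (1.62 and 0.31).

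**Figure D3:**
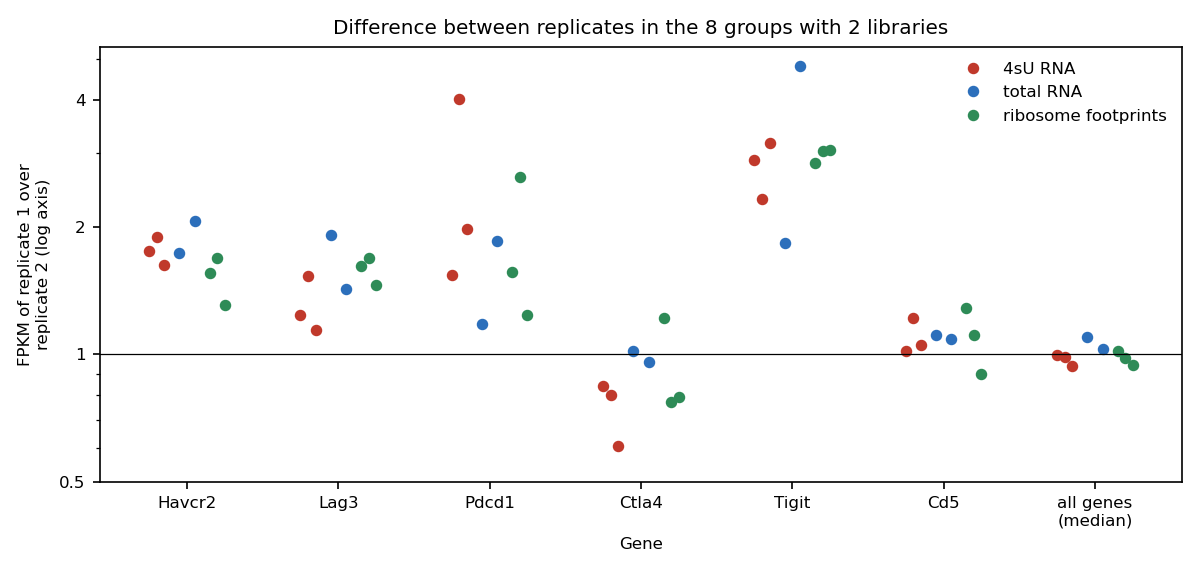
Ratio of replicate 1 to replicate 2 FPKM on a log axis for each receptor in the 8 replicated groups. Havcr2, Lag3, Pdcd1 and Tigit lie above 1 in all 8 groups, while Ctla4 lies above 1 in 2 of them.

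The kinds of library were next set against each other within a replicate, as the ratio of FPKM. As background, new RNA over total RNA is higher for mRNA that is made and lost quickly. At 0 h it was 3.8 and 2.92 for Pdcd1 in replicates 1 and 2, above 99.3% and 86.0% of genes, and 2.95 and 3.56 for Ctla4, above 94.6% and 93.2%. Lag3 lay at the opposite end with 0.193 and 0.299, above only 0.574% and 1.79% of genes, where the median gene had 1.45 and 1.59. Cd5 was near the median gene, with 1.35 and 1.47, and Havcr2 had 0.91 and 0.901. Lag3 remained low at 4 h, with 0.419 and 0.524, and Pdcd1 remained high, with 3.44 and 3.21.

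Footprints over total RNA at 0 h was 15.6 and 10.0 for Tigit and 7.56 and 9.0 for Lag3, against 2.57 and 2.84 for the median gene. Those of Havcr2 were 3.34 and 3.73, of Pdcd1 2.69 and 2.03, of Ctla4 2.75 and 2.29, and of Cd5 2.74 and 2.34. The FPKM steps matched coding length in all 8 footprint libraries and summed exon length in the 1 total RNA library of 6 and the 1 new RNA library of 8 that could be resolved, so the lengths behind the other RNA values are unknown. Summed exons and coding sequence are 919 and 723 bases in Tigit, 2109 and 1563 in Lag3 and 2721 and 843 in Havcr2. At 4 h Tigit had 9.91 and 15.6, and Lag3 had 10.6 and 10.3.

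**Figure D4:**
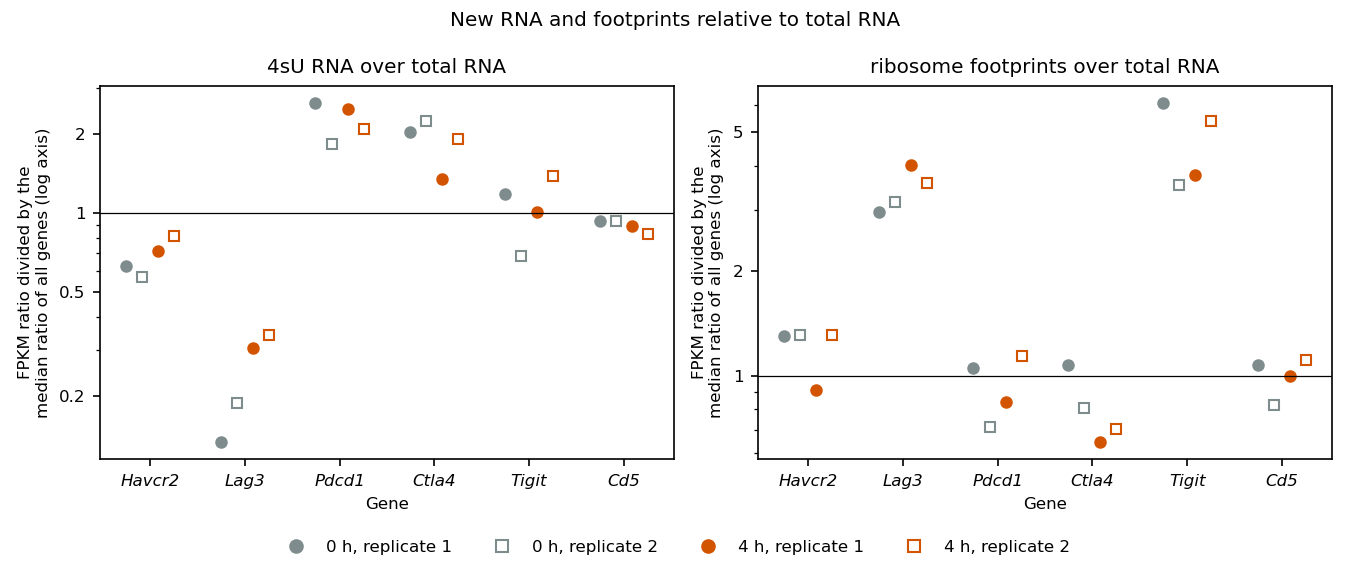
FPKM ratio of new RNA to total RNA (left) and of footprints to total RNA (right), each divided by the median ratio of all genes, on log axes, at 0 and 4 h in both replicates. Lag3 is below and Pdcd1 and Ctla4 above the median gene on the left, and Tigit and Lag3 are above it on the right.

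Whether the 4 h change differed between kinds was tested directly. Footprint minus total RNA changes were 0.06 ± 0.57 for Havcr2 (-0.20 with median-of-ratios scaling), 0.35 ± 0.58 for Lag3, 0.24 ± 0.64 for Pdcd1, -0.43 ± 0.33 for Ctla4, 0.11 ± 1.19 for Tigit and 0.20 ± 0.29 for Cd5. None of the 6 was called by limma, as in 0% of all genes (0.0322% with the block), where 275 genes had an unadjusted p below 0.05. New RNA minus total RNA changes were 0.24 ± 0.61 for Havcr2, -0.47 ± 0.42 for Ctla4, 0.04 ± 0.86 for Pdcd1, 0.29 ± 1.07 for Tigit and -0.18 ± 0.27 for Cd5. None was called by limma, again as in 0% of genes (1.87% with the block), with 538 genes at an unadjusted p below 0.05. These SEs are from the fit without the block, and with it they were smaller. For footprint minus total RNA they were 0.25 for Havcr2, 0.24 for Lag3 and 0.36 for Pdcd1. Those of Ctla4, Tigit and Cd5 were 0.31, 0.37 and 0.26. For new RNA minus total RNA they were 0.23 for Havcr2, 0.43 for Pdcd1 and 0.31 for Ctla4. The errors leave room for sizeable differences, so these values do not show equal changes.

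The genes around the receptors were described from 5 lists. Among genes listed as other inhibitory receptors, 5 of 12 measured were called lower in new RNA at 4 h and none higher, with a median change of -0.84. Of all genes 18.9% were called lower and 14.4% higher, and the median gene changed by -0.16. The list was broad and held Il10ra and Tnfrsf14, the latter among the 5 called lower. Cd96 and Cd6 were also listed as counter-receptors, so the fall of Cd96 counts in both lists. With the block 9 were called lower and none higher, against 35.4% and 23.3% of all genes. Cd101 fell from 7.995 ± 0.53 to 1.81 ± 0.26 FPKM (SD, n = 2; log2 change -1.68 ± 0.19, limma adjusted p = 0.00326). Lair1, which binds collagen, went from 12.1 to 2.71 FPKM, a change of -1.93 ± 0.67 that was called only with the block (limma adjusted p 0.0709, and 0.000219 with the block). In footprints 3 of 13 were called lower and 1 higher (5 and 1 with the block). Of all genes 12.9% were called lower and 12.1% higher (26.7% and 21.3% with the block).

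Of the receptors' ligands, 2 of 10 measured were called higher and 1 lower in new RNA at 4 h, against 14.4% and 18.9% of all genes. With the block 2 were higher and 4 lower, against 23.3% and 35.4% of all genes. Both ligands of PD-1 rose. Cd274 (PD-L1) went from 17.4 ± 2.26 to 71.2 ± 29.2 FPKM (log2 change 1.92 ± 0.31, limma adjusted p = 0.0071). Pdcd1lg2 (PD-L2) went from 4.15 ± 2.85 to 22.8 ± 4.79 FPKM (log2 change 2.32 ± 0.41, limma adjusted p = 0.00941). They also rose in total RNA, by 1.98 ± 0.25 and 1.98 ± 0.23, and in footprints, by 2.88 ± 0.37 and 1.90 ± 0.40, with limma adjusted p from 0.00699 to 0.0233.

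Among counter-receptors that share a ligand or fold with the 6, 1 of 6 measured was called higher and 3 lower in new RNA at 4 h (1 and 4 with the block). For comparison, the called share of the whole gene set was 14.4% upward and 18.9% downward. The block raised these shares to 23.3% and 35.4%. Cd28, the costimulator that CTLA-4 outcompetes, fell in new RNA from 307 ± 17.4 to 115 ± 15.8 FPKM (log2 change -1.42 ± 0.24, limma adjusted p = 0.0082). Its footprints fell from 1200 ± 235 to 564 ± 43.8 FPKM (limma adjusted p = 0.0295). Cd226, the activating partner of TIGIT, went from 21.6 to 5.53 FPKM in new RNA, a change of -1.86 ± 0.77 that was called only with the block (limma adjusted p 0.108, and 6.0e-05 with the block). Its replicates differed widely, with an SD of 14.1 FPKM at 0 h.

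Intracellular partners and trafficking genes had 6 of 30 called lower and none higher in new RNA at 4 h, with a median of -0.23, where 18.9% of all genes were called lower. With the block 11 were called lower and 1 higher, against 35.4% and 23.3% of all genes. Pdcd4, a translation inhibitor that shares with PD-1 only the name, fell by 1.36 ± 0.30 (limma adjusted p = 0.0177). Pag1, a membrane adaptor that recruits the kinase CSK, fell by 1.30 ± 0.27 (limma adjusted p = 0.0157). Transcription factors known to act at these genes had 9 of 25 called higher and 2 lower at 4 h, with a median of 0.50. Of all genes 14.4% were called higher and 18.9% lower. With the block 13 transcription factors were called higher and 4 lower, against 23.3% and 35.4% of all genes. At 1 h 6 were called higher and none lower, against 0.183% of all genes higher. With the block 9 were higher, against 5.21% of all genes. Egr2 went from 2.30 FPKM at 0 h to 222 ± 89.3 at 1 h and 38.7 ± 10.0 at 4 h in new RNA (log2 change at 1 h 6.02 ± 0.32, limma adjusted p = 0.00948). Nr4a3 went from 1.03 to 64.9 ± 12.0 and 35.5 ± 24.2 FPKM (log2 change at 1 h 5.01 ± 0.45, limma adjusted p = 0.0272).

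**Figure D5:**
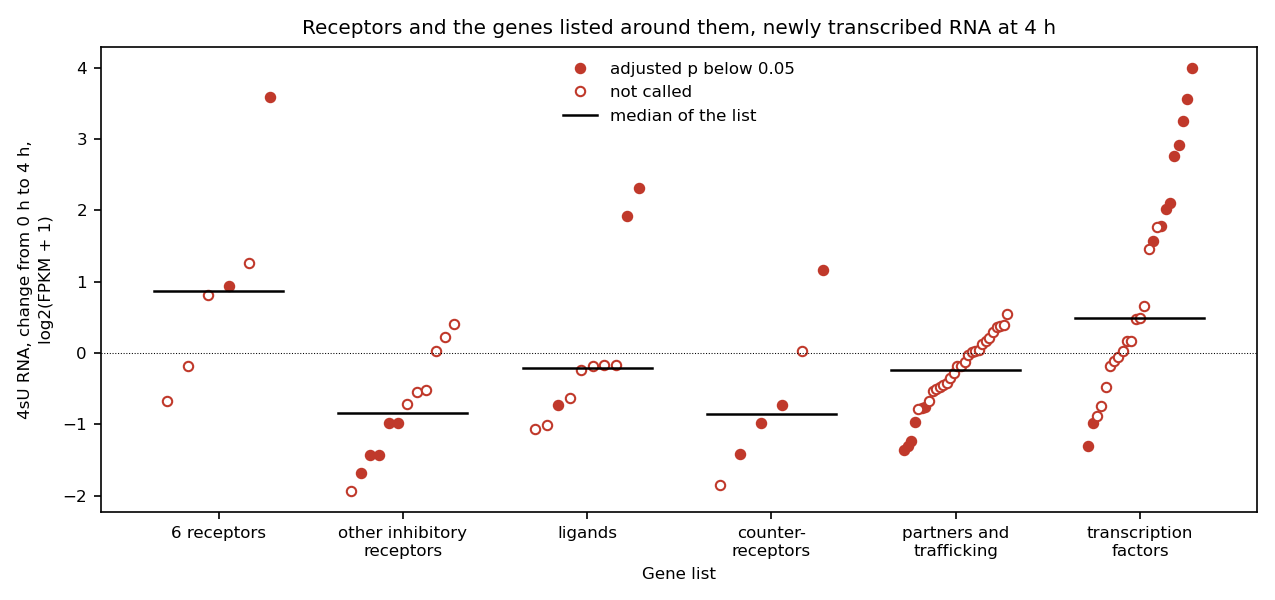
Change in log2(FPKM + 1) of new RNA from 0 to 4 h for the receptors and 5 lists of related genes, 1 point per gene, filled where the adjusted p was below 0.05, with a line at the median of each list and a dotted line at 0. The other inhibitory receptors lie mostly below 0, and the highest points are the transcription factor Nr4a3 (3.99) and the receptor Havcr2 (3.59).

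Across the 22 libraries of 1 h label, total RNA and footprints, the genes most like each receptor were sought by Pearson's r of log2(FPKM + 1) after centring within kind, among 7641 genes. The libraries share replicate, time and depth, so r is a description. Havcr2 was most like Ppan (0.991), Rrs1 (0.988) and Gnl3 (0.984). Pdcd1 was most like Fhl2 (0.943), Rilpl2 (0.943) and Il21 (0.942), Tigit like Calr (0.959), Cst7 (0.953) and Sema4b (0.94), and Lag3 like Inf2 (0.912), Sdf4 (0.91) and Gdpd5 (0.901). Ctla4 was most like Slc35f6 (0.922), Pde4b (0.915) and Galns (0.912), and Cd5 like Trim8 (0.93), Traf2 (0.912) and Rab11fip4 (0.911). Without the total RNA library at 1 h the r of Cd5 with these genes was 0.884, 0.91 and 0.895, and they ranked 11, 4 and 7 among the genes most like it. Among the receptors themselves, Havcr2 and Tigit (0.779), Lag3 and Pdcd1 (0.76) and Lag3 and Tigit (0.743) moved most alike, while Ctla4 ran against Tigit (-0.69) and Havcr2 (-0.67). Without that library Pdcd1 and Cd5 had the highest r of any pair, 0.787 in place of 0.64.

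The short label gave a view of the first 0.5 h, with 1 library a time and no test. Havcr2 had 0.96 and 1.58 FPKM at 0 and 0.5 h, from 38.7 and 54.6 inferred reads. Pdcd1 had 11.39 and 7.82 FPKM, Ctla4 727.53 and 564.03, and Lag3 6.31 and 5.04. Tigit had 2.93 and 4.14 FPKM and Cd5 104.81 and 96.21. Havcr2 and Tigit were higher at 0.5 h than at 0 h and the other receptors lower.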

How the data were processed

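Per the submitters' processing notes, the authors used GRCm38 and the featureCounts program (Subread 1.4.6-p3) and deposited FPKM values with 2 decimals for 9420 genes in 24 libraries; aligner, annotation, strand setting, gene length and the rule by which genes were kept were not stated there. Symbols and coordinates came from GENCODE M21. The members, the pathway and marker lists and the tests were chosen with earlier results of these data known. Fits were made within 1 kind of library in limma 3.58.1 (R 4.3.3) on log2(FPKM + 1) with a trended prior variance. All times entered the fit, with genes of a mean of at least 1 FPKM and Benjamini-Hochberg adjustment over 9278 (4sU), 9078 (total) or 9312 (footprint) genes. The script was tested on simulated data. Deviations from group means correlated between same-numbered libraries in 28 of 28 pairs of groups (r 0.306 to 0.79, median 0.598). On that evidence, which is from the data and not the labels, same-numbered libraries were treated as pairs in the fit with the replicate block. The main fit had no block, so its calls and SEs ignore this pairing. Depth was inferred from FPKM steps with a tolerance of 0.1 read (up to 8 reads, at least 80% of low genes whole), which resolved 12 libraries and left 12 unknown. The named genes were the 6 receptors, the 2 genes of each pathway list with the largest 4sU change at 4 h, and the 3 genes most like each receptor. Promoters came from RefSeq (GRCm38.p6), which held 5 of the 6. Other pseudocounts (0.1 and 5), filters (none and 5 FPKM), median-of-ratios scaling, a constant prior variance, only the groups compared, the replicate block and leaving out each library were tried.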

Additional observations from a re-analysis of the deposited data

How the results depend on the processing

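Of the genes called, 17, 3089 and 2473 stood in new RNA at 1 h against 0 h, 4 h against 0 h and 4 h against 1 h, 1224 in total RNA at 4 h against 0 h, and 13, 2326 and 1310 in the same comparisons of footprints. With the replicate block these counts were 986, 5445, 5022, 3618, 183, 4474 and 3422, and the tests between kinds went from 0 to 3 (footprints against total RNA) and 173 (new RNA against total RNA). The block also called Havcr2, Lag3, Pdcd1, Tigit and Ctla4 changes given beside their results, and changed no other call of a receptor. A pseudocount of 5 gave 7 (new RNA, 1 h), 1 (footprints, 1 h) and 3 (footprints against total RNA) genes. Fitting only the groups compared gave 9 and 3 at 1 h in new RNA and footprints, and a constant prior variance gave 2 for footprints against total RNA. The 6 receptor changes called with all libraries and no block stayed called under all 8 settings that kept every library. Under median-of-ratios scaling the median gene moved up by 0.15 (new RNA, 4 h against 0 h), 0.11 (4 h against 1 h) and 0.10 (total RNA), Cd5 new RNA at 0 h was 134 FPKM and Ctla4 total RNA 179.7, and the Cd5 change turned to 0.11 in total RNA at 4 h and 0.037 in footprints at 1 h. Footprint minus total RNA of Havcr2 became -0.20 with that scaling and -0.19 with a pseudocount of 0.1. The cause of these changes was not tested. Leaving out 1 library at a time gave 0 to 15, 1096 to 2992, 578 to 2448, 91 to 719, 0 to 25, 503 to 1259 and 0 to 133 called genes in the same order and 0 in both tests between kinds, with fewer libraries to estimate the spread. A lone library was then assumed to vary like the other groups. The Havcr2 changes ranged from 3.25 to 3.93 (new RNA), 2.84 to 3.86 (total RNA) and 3.12 to 3.70 (footprints) at 4 h against 0 h, and 1.68 to 2.51 (new RNA) and 2.19 to 2.91 (footprints) against 1 h, and Lag3 new RNA from 0.80 to 1.07. Of the receptor values so recomputed, 209 kept direction and call, 44 changed sign (none of them called with all libraries), 10 lost their call and 1 gained it. Without the total RNA library at 1 h, a setting added after seeing the data, the r of Ctla4 with Cd5 went from -0.043 to 0.0688. The sign changes with 1 library left out were as follows. In new RNA at 1 h, these were Ctla4 (-0.069 to 0.25), Tigit (-0.60 to 0.67) and Cd5 (-0.11 to 0.18), and from 1 to 4 h Lag3 (-0.19 to 0.38) and Pdcd1 (-1.72 to 0.27). In total RNA they were Lag3 (-0.39 to 0.52), Tigit (-0.033 to 1.96) and Cd5 (-0.083 to 0.062). In footprints they were Lag3 (-0.37 to 0.39), Tigit (-0.95 to 0.61) and Cd5 (-0.20 to 0.17) at 1 h, Cd5 (-0.00074 to 0.37) at 4 h and Pdcd1 (-1.27 to 0.10) from 1 to 4 h. Footprint minus total RNA turned for Havcr2 (-0.45 to 0.58), Lag3 (-0.11 to 0.80), Pdcd1 (-0.17 to 0.66) and Tigit (-0.88 to 1.11), and new RNA minus total RNA for Havcr2 (-0.27 to 0.76), Pdcd1 (-0.44 to 0.53) and Tigit (-0.70 to 1.29).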
